A study of Bos taurus with 20 samples.

Results

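The genes described here encode enzymes of cholesterol synthesis: HMGCS1, IDI1, FDPS, FDFT1, SQLE, CYP51A1 and DHCR7. They were followed in the mammary gland of dairy cows during an experimental Escherichia coli mastitis. The members were all probe sets of the array whose annotated gene symbol was 1 of these 7 symbols. The rule found 9 probe sets of 6 genes, out of 24128 probe sets on the array, and IDI1 was skipped because no probe set carries its symbol in the annotation.

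Cholesterol is built from acetyl-CoA through mevalonate, isoprenoid diphosphates, squalene and lanosterol, and the enzymes of the route stand largely under the transcription factor SREBP-2, which is activated when the sterol content of the endoplasmic reticulum falls. The lactating mammary epithelium makes part of its own cholesterol, which goes into cell membranes and into the membrane that surrounds milk fat globules. Macrophages and other leukocytes run the same route, and type I interferon and oxysterols are known to lower it.

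RNA of mammary tissue from 20 glands of 5 mid-lactation Holstein Friesian cows was hybridized to the Affymetrix Bovine Genome Array, 1 array per gland. In every cow 3 glands received 100 colony-forming units of the E. coli strain ECC-Z and the fourth did not (NC, not challenged). Of the 3 challenged glands, 1 was left untreated (CNT), 1 was infused with 300 mg of the cephalosporin cefapirin (CF), and 1 with 300 mg cefapirin plus 20 mg of the glucocorticoid prednisolone (CFPD). Cows 4 and 5 were killed 24 h after the challenge, after infusions at 4 and 12 h, and cows 1, 2 and 3 at 48 h, after further infusions at 24 and 36 h. There were thus 2 arrays per group at 24 h and 3 per group at 48 h, and the 4 groups of a time point came from the same animals. The 24 h and the 48 h glands came from different cows, so time and animal cannot be told apart. In every cow the NC gland was the right front and the CNT gland the left front, so challenge and gland position cannot be told apart either. All CF and CFPD glands were rear glands, so that treatment cannot be told apart from front or rear position in any comparison with CNT or NC. By the labels the samples are from the cisternal region, while the methods of the study speak of parenchyma.

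Levels are given as the log2 values that the authors computed by robust multi-array average (RMA), in which 1 unit is a doubling. The median probe set of an array lay between 7.12 and 7.31. Levels can be compared between arrays for a probe set, but not between probe sets. The neutrophil markers, of which 6 of 9 were on the array, had a mean level of 6.35 to 7.31 in NC glands and 9.12 to 11.14 in CNT glands, and all 4 that were tested were called higher in CNT at both time points. The mean of 11 markers of secretory epithelium lay between 12.69 and 12.86 in CNT glands at 24 h, below the 13.04 to 13.19 of the NC glands, and 2 of the 10 tested were called lower at 24 h and 0 at 48 h. Of 4 macrophage markers 0 were called at 24 h and 2 were called higher at 48 h, and none of the markers tested of lymphocytes (3), adipocytes (1), myoepithelium (5), endothelium (2) and fibroblasts (5) was called at either time. In whole tissue a lower share of a cell type and less RNA per cell cannot be told apart. For cows 2 and 5 there is doubt which treated gland is CF and which is CFPD, because the fold changes of the study follow the deposited arrays more closely with these 2 labels exchanged. NC and CNT are not touched by this. Some comparisons of CF and CFPD are also given with the labels exchanged, and the others follow the deposited labels only.

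At 24 h, FDPS, SQLE and CYP51A1 were higher in both CNT glands than in both NC glands, by 1.77-fold, 1.48-fold and 1.52-fold. With 2 arrays in each group such gaps were common, since at 24 h the CNT and NC arrays did not overlap for 26.3% of all probe sets tested in the higher direction and for 26% in the lower. None of the 6 genes reached the fold change of 2 used for calls, and with an adjusted p under 0.05 from limma, the test across all probe sets, only FDPS passed. At 48 h the levels of 5 of the 6 genes averaged lower in CNT than in NC glands and none passed. In cows 1 and 2 the CNT gland was below the NC gland for 5 of the 6 genes, and in cow 3 for 3 of them, and the cow with the lowest value differed between genes. The test of the difference between the time points did not pass for any of the 6 genes.

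A probe set was called where its adjusted p lay under 0.05 and its log2 difference reached 1 in either direction. For the comparison of CNT with NC glands, 2.39% of the 13004 probe sets tested were called at 24 h and 2.66% of 13000 at 48 h. Of the 9 member probe sets 8 were tested at each time point and 0 were called at either.

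**Figure D1:**
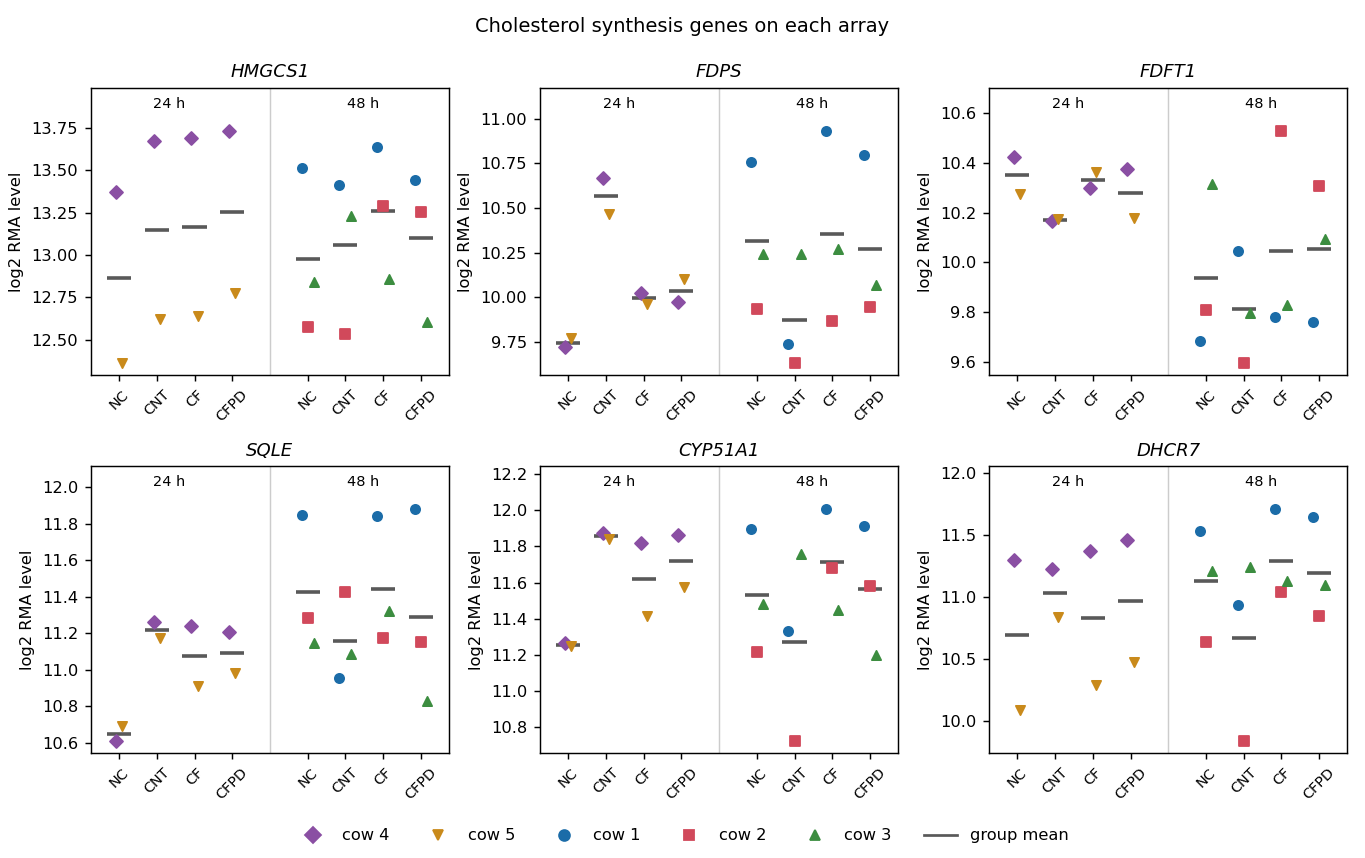
Level of 6 cholesterol synthesis genes on each of the 20 arrays (y axis, log2 RMA level, scaled for each gene) by group and time point (x axis), for the probe set of each gene with the highest mean. Symbols stand for cows and horizontal lines for group means. At 24 h the CNT glands lie above the NC glands for FDPS, SQLE and CYP51A1, and at 48 h the groups overlap for all 6 genes shown.

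HMGCS1 makes hydroxymethylglutaryl-CoA, the substrate of the reductase that controls the route. It has 2 probe sets, of which Bt.22763.2.S1_a_at gave the higher signal. At 24 h its levels in cows 4 and 5 were 13.37 and 12.36 in NC, 13.68 and 12.62 in CNT, 13.69 and 12.64 in CF, and 13.73 and 12.78 in CFPD. Cow 4 was higher than cow 5 by about 1 unit in all 4 glands, and within both cows the NC gland was the lowest of the 4. The fitted difference between CNT and NC was 0.28 ± 0.56 (SE, n = 2 arrays each, limma, adjusted p = 0.822), an SE that includes the offset between the cows. Within cows 4 and 5 the difference was 0.30 and 0.26. With the cow as a block its interval ran from -0.004 to 0.57 (limma, adjusted p = 0.158), so that it did not pass there either. At 48 h the levels in cows 1, 2 and 3 were 13.51, 12.58 and 12.84 in NC, and 13.41, 12.54 and 13.23 in CNT. In CF they were 13.64, 13.29 and 12.86, and in CFPD 13.45, 13.25 and 12.61. The CNT and NC glands overlapped, with a difference of 0.08 ± 0.33 (SE, n = 3 each; limma, adjusted p = 0.901). The second probe set, Bt.22763.1.S1_at, lay near the median of the arrays, between 6.36 and 8.35. It gave differences of 0.20 ± 0.51 at 24 h and -0.02 ± 0.53 at 48 h. Across the 20 arrays the 2 probe sets of HMGCS1 correlated with r = 0.86, and with r = 0.80 after the mean of each cow was subtracted.

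FDPS makes farnesyl diphosphate, from which squalene, prenyl groups of proteins, dolichol and the ubiquinone side chain all branch. Its probe set is Bt.23182.1.S1_at. At 24 h its levels in cows 4 and 5 were 9.72 and 9.77 in NC, 10.67 and 10.46 in CNT, 10.03 and 9.96 in CF, and 9.97 and 10.10 in CFPD. The CNT glands were the highest of both cows, the NC glands the lowest, and the treated glands lay between them without overlap with either. This full order was not counted over all probe sets, of which 26.3% were higher in CNT than in NC without overlap. CNT exceeded NC by 0.82 ± 0.15 (SE, n = 2 each), with a 95% confidence interval from 0.47 to 1.18, or 1.38 to 2.26 as a fold (limma, adjusted p = 0.0424). Of all probe sets tested at 24 h, 1.89% were higher at an adjusted p under 0.05 whatever their fold. With the cow as a block, FDPS had an adjusted p of 0.0129. When any 1 of the 8 arrays or either cow was left out, the difference stayed between 0.69 and 0.95 but FDPS no longer passed. Each of these fits had a group with 1 array left. The fits without a cow also took all remaining arrays in 1 fit, where FDPS failed with nothing left out. They therefore cannot show which arrays the pass at 24 h needed. The pass was also missed with quantile normalization within the time point (adjusted p = 0.0561) and with all 20 arrays in 1 fit (0.23).

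At 48 h the levels of FDPS in cows 1, 2 and 3 were 10.76, 9.94 and 10.24 in NC, and 9.74, 9.63 and 10.24 in CNT. They were 10.93, 9.87 and 10.27 in CF, and 10.80, 9.95 and 10.07 in CFPD. In cow 1 the CNT gland was about 1 unit below the other 3 glands, in cow 2 it was the lowest by a smaller step, and in cow 3 it equalled the NC gland. CNT minus NC was -0.44 ± 0.32 (SE, n = 3 each), with an interval from -1.15 to 0.26 (limma, adjusted p = 0.419). Without cow 1 the difference was -0.15.

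FDFT1, squalene synthase, joins 2 farnesyl diphosphates in the first step that leads only to sterols. Its probe set with the highest signal, Bt.21724.1.S1_at, averaged lower in CNT than in NC at either time. At 24 h its levels in cows 4 and 5 were 10.43 and 10.27 in NC, 10.17 and 10.18 in CNT, 10.30 and 10.36 in CF, and 10.38 and 10.18 in CFPD. The CNT glands were the lowest and did not overlap with the NC glands, by a small step of -0.18 ± 0.15 (SE, n = 2 each; limma, adjusted p = 0.551). Such a gap in the lower direction was seen for 26% of all probe sets tested.

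At 48 h the levels of this probe set of FDFT1 in cows 1, 2 and 3 were 9.68, 9.81 and 10.31 in NC and 10.05, 9.59 and 9.80 in CNT. In CF they were 9.78, 10.53 and 9.83, and in CFPD 9.76, 10.31 and 10.10. All 4 groups overlapped, and CNT minus NC was -0.12 ± 0.25 (SE, n = 3 each; limma, adjusted p = 0.788). The second probe set of FDFT1, Bt.21724.2.S1_a_at, ran between 8.15 and 10.02. It was lower in all 3 CNT glands (8.51 to 8.59) than in all 3 NC glands (8.84 to 9.20) at 48 h, where 9.07% of all probe sets tested were lower without overlap. Its difference was 0.04 ± 0.45 at 24 h and -0.41 ± 0.30 at 48 h (limma, adjusted p = 0.975 and 0.432). The 2 probe sets of FDFT1 correlated with r = 0.50 over the 20 arrays. The remaining one, Bt.21724.3.A1_at, stayed at 3.35 to 4.64, above the median on 0 arrays, and was not tested.

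SQLE, squalene epoxidase, adds the first oxygen to squalene and is a slow step of the sterol branch. Its probe set is Bt.9767.1.S1_a_at. At 24 h its levels in cows 4 and 5 were 10.61 and 10.69 in NC, 11.26 and 11.17 in CNT, 11.24 and 10.91 in CF, and 11.21 and 10.98 in CFPD. All 6 challenged glands, treated or not, lay above both NC glands. Of all probe sets tested at 24 h, 26.3% were higher than NC without overlap in CNT, 9.37% in CF and 11.4% in CFPD. The share with all of these at once was not counted. CNT exceeded NC by 0.57 ± 0.17 (SE, n = 2 each), with an interval from 0.16 to 0.98 (limma, adjusted p = 0.129, and 0.0422 with the cow as a block). In cows 1, 2 and 3 at 48 h SQLE had levels of 11.85, 11.28 and 11.15 in NC and 10.95, 11.43 and 11.09 in CNT. They were 11.84, 11.17 and 11.32 in CF, and 11.88, 11.15 and 10.83 in CFPD. Only cow 1 had a CNT gland clearly below its others, and the groups overlapped. CNT minus NC was -0.27 ± 0.29 (SE, n = 3 each; limma, adjusted p = 0.593), and 0.04 without cow 1.

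CYP51A1, lanosterol 14-alpha-demethylase, acts on the first sterol ring system of the route. Its probe set is Bt.621.1.S1_at. At 24 h its levels in cows 4 and 5 were 11.26 and 11.25 in NC, 11.87 and 11.84 in CNT, 11.82 and 11.41 in CF, and 11.86 and 11.57 in CFPD. As for SQLE, both NC glands lay below all 6 challenged glands, an order whose share over all probe sets was not counted. CNT exceeded NC by 0.60 ± 0.19 (SE, n = 2 each), with an interval from 0.16 to 1.05 (limma, adjusted p = 0.138, and 0.0394 with the cow as a block). In cows 1, 2 and 3 at 48 h CYP51A1 had levels of 11.89, 11.22 and 11.48 in NC and 11.33, 10.72 and 11.76 in CNT. They were 12.01, 11.68 and 11.45 in CF, and 11.91, 11.58 and 11.20 in CFPD. The CNT gland was the lowest of cows 1 and 2 and the highest of cow 3, and the groups overlapped. CNT minus NC was -0.26 ± 0.29 (SE, n = 3 each; limma, adjusted p = 0.603), and -0.11 without cow 1.

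DHCR7 carries out the last reduction, from 7-dehydrocholesterol to cholesterol. Its probe set is Bt.5449.1.S1_at. At 24 h its levels in cows 4 and 5 were 11.30 and 10.09 in NC, 11.23 and 10.83 in CNT, 11.37 and 10.29 in CF, and 11.46 and 10.47 in CFPD. In cow 5 the CNT gland lay 0.74 above the NC gland and in cow 4 it lay 0.07 below, and the groups overlapped. The fitted difference was 0.34 ± 0.53 (SE, n = 2 each; limma, adjusted p = 0.773). For DHCR7 the levels at 48 h in cows 1, 2 and 3 were 11.53, 10.63 and 11.21 in NC and 10.93, 9.83 and 11.24 in CNT. They were 11.71, 11.03 and 11.12 in CF, and 11.64, 10.84 and 11.09 in CFPD. The CNT gland was the lowest of cows 1 and 2, but the CNT gland of cow 3 was as high as its NC gland, and the groups overlapped. CNT minus NC was -0.46 ± 0.37 (SE, n = 3 each; limma, adjusted p = 0.467), and -0.28 without cow 2.

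**Figure D2:**
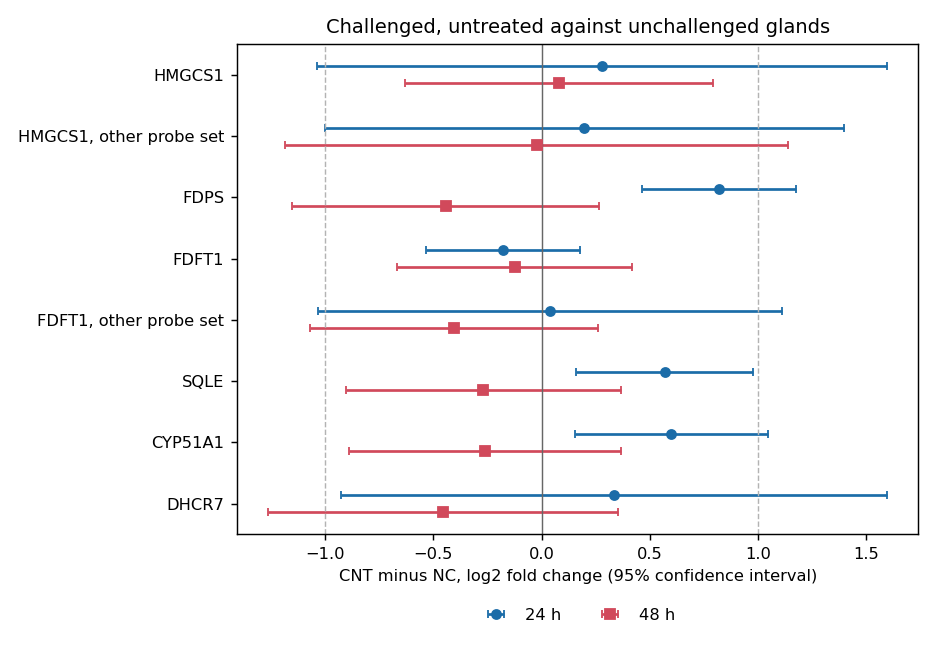
CNT minus NC as a log2 fold change (x axis) for the 8 tested probe sets of the cholesterol synthesis genes (y axis) at 24 h (circles) and 48 h (squares), with 95% confidence intervals from limma and dashed lines at the fold change used for calls. The intervals of FDPS, SQLE and CYP51A1 lie above 0 at 24 h, and all 8 intervals include 0 at 48 h.

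Taking the probe set of each gene with the highest mean, the median CNT minus NC difference over the 6 genes at 24 h was 0.45, against -0.01 over all probe sets tested, and 5 of 6 were positive, against 49.2% of all. At an unadjusted p under 0.05, 3 of the 6 were higher and 0 lower, where 11.7% of all probe sets were higher and 9.03% lower. With the cow as a block and an adjusted p under 0.05 at any fold, FDPS, SQLE and CYP51A1 were the 3 that passed, among 9% of all probe sets in the higher direction. At 48 h the median over the 6 genes was -0.27, against 0.13 over all probe sets tested. The single positive one was HMGCS1, whereas 62.6% of all probe sets were positive. None of the 6 had an unadjusted p under 0.05, where 16.8% of all probe sets were higher and 7.52% lower by that measure, and none passed with the cow as a block, where 15.8% of all did.

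Because the 4 glands of a cow share the animal, the differences were also read within each cow. The median CNT minus NC difference of the 6 genes was 0.46 in cow 4 and 0.54 in cow 5 at 24 h. It was -0.58 in cow 1, -0.26 in cow 2 and 0.01 in cow 3 at 48 h. Cows 4 and 5 had 4 and 5 of the 6 genes above NC, cows 1 and 2 had 1 each, and cow 3 had 3. The lowest single value was FDPS in cow 1 (-1.02) and the highest FDPS in cow 4 (0.95).

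**Figure D3:**
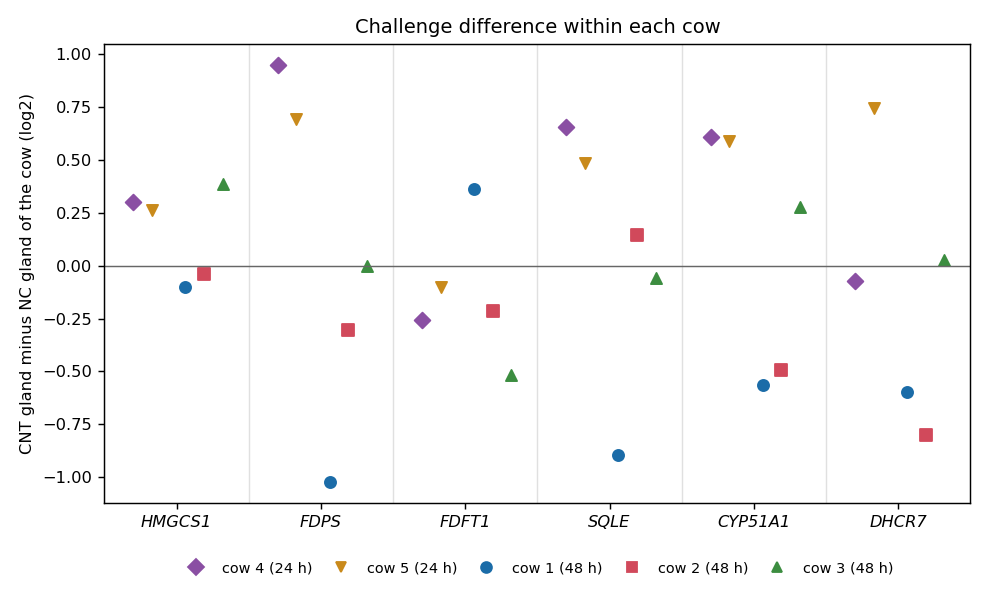
Difference between the CNT and the NC gland of the same cow (y axis, log2) for 6 cholesterol synthesis genes (x axis), with 1 symbol per cow. For FDPS, SQLE and CYP51A1 the 2 cows of 24 h lie above the 3 cows of 48 h, and cow 1 is the lowest for FDPS, SQLE and CYP51A1.

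The neutrophil markers moved with the challenge in every cow, with a median difference of 4.36 and 3.49 in cows 4 and 5 and of 3.93, 2.36 and 3.13 in cows 1, 2 and 3. The median CNT minus NC difference of the secretory epithelium markers was -0.05 in cow 1, -0.11 in cow 2, -0.25 in cow 3, -0.22 in cow 4 and -0.12 in cow 5. Cows 1 and 4 had the largest neutrophil shifts of their time points, while FDPS in these cows had the lowest and the highest difference of all 5. Cows 1 and 4 also had the highest hybridization control signals, 11.62 to 12.39 against 10.65 to 11.56 in cows 2, 3 and 5. The parts of cell composition and of hybridization in the differences of the cholesterol synthesis genes were not tested.

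The difference between the time points was tested in 1 fit of all 20 arrays. For FDPS the CNT minus NC difference was lower at 48 h than at 24 h by 1.26, that is -1.26 ± 0.44 (SE) with an interval from -2.20 to -0.33. Its unadjusted p was 0.0114 and its adjusted p 0.499 (limma), and with the cow as a block they were 0.00118 and 0.0984. The same quantity was -0.86 ± 0.40 for CYP51A1, -0.84 ± 0.40 for SQLE and -0.79 ± 0.67 for DHCR7, with adjusted p of 0.639, 0.652 and 0.834. It was -0.20 ± 0.64 for HMGCS1 and 0.05 ± 0.34 for FDFT1, whose second probe set gave -0.45 ± 0.56. The median over the 6 genes was -0.82, against 0.09 over all probe sets. In this test 0 of 13486 probe sets were called (0%), while 1.97% had an unadjusted p under 0.05 in the lower direction, and with the cow as a block 27 were called (0.2%).

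The NC and the CNT glands both differed between the time points. From 24 h to 48 h the mean level of FDPS was 0.57 higher in NC glands and 0.70 lower in CNT glands. SQLE was 0.78 higher in NC glands and 0.06 lower in CNT glands. For CYP51A1 the shifts were 0.27 and -0.59, and for DHCR7 0.43 and -0.36. SQLE therefore differed between the time points mostly in the NC glands, and CYP51A1 mostly in the CNT glands. These are different animals, so the shifts are given without a test.

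In the treated glands at 24 h, FDPS lay below its CNT level. CF was 0.57 below CNT (-0.57 ± 0.15, SE, n = 2 each; limma, adjusted p = 0.0952, and 0.0359 with the cow as a block, where 9.66% of all probe sets were lower), and CFPD was 0.53 below (-0.53 ± 0.15; adjusted p = 0.134, and 0.0514 with the block). No member probe set was called in either comparison, where 2.14% of all probe sets were called for CF and 1.4% for CFPD. With the labels of cow 5 exchanged the FDPS differences were -0.50 for CF and -0.60 for CFPD, with adjusted p of 0.132 and 0.0846, and 0.0492 and 0.0286 with the block. Taken as 1 treated group of 4 arrays, which the exchange does not touch, the treated glands were below CNT by -0.55 ± 0.12 (SE, limma, adjusted p = 0.0251). These arrays were 2 glands of each cow, fitted without a term for the cow, so this p counts glands of 1 animal as independent. The share of all probe sets that passed in this fit is not given here. The differences of SQLE and CYP51A1 from CNT were -0.14 and -0.24 in CF and -0.12 and -0.14 in CFPD, with adjusted p between 0.507 and 0.748.

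Compared with NC at 24 h, SQLE was 0.43 ± 0.17 higher in CF and 0.45 ± 0.17 higher in CFPD, CYP51A1 0.36 ± 0.19 and 0.46 ± 0.19, and FDPS 0.25 ± 0.15 and 0.29 ± 0.15 (SE, n = 2 each). For all 3 genes the treated and NC arrays did not overlap, as was the case for 9.37% of all probe sets in the higher direction for CF and 11.4% for CFPD. None passed in these comparisons, in which 0 of 13004 probe sets were called (0%) and every member had an adjusted p of 1 after rounding (limma). An unadjusted p under 0.05 was given to SQLE in both and to CYP51A1 in CFPD, and to 0.177% of all probe sets in the higher direction for CF and 0.738% for CFPD. HMGCS1, FDFT1 and DHCR7 overlapped between treated and NC glands. Within cows 4 and 5, HMGCS1 was still above NC in CF (0.31 and 0.28) and in CFPD (0.36 and 0.42). So was DHCR7 (0.07 and 0.20 in CF, 0.16 and 0.38 in CFPD), while FDFT1 was not in every treated gland. With the cow as a block no member passed either.

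The mean levels of all 6 genes at 48 h were higher in CF and in CFPD than in CNT glands. The median difference was 0.36 for CF and 0.27 for CFPD, against -0.14 and -0.13 over all probe sets tested. DHCR7 had the highest, 0.62 ± 0.37 in CF and 0.52 ± 0.37 in CFPD (SE, n = 3 each), followed by FDPS with 0.49 ± 0.32 and 0.40 ± 0.32, and CYP51A1 with 0.44 ± 0.29 and 0.29 ± 0.29. Without a term for the cow none had an unadjusted p under 0.05 and none was called (limma). In that fit 1.64% of all probe sets were called for CF and 1.21% for CFPD, and 5.9% and 5.63% were higher at an unadjusted p under 0.05. The lowest adjusted p was 0.354, for DHCR7 in CF. With the cow as a block DHCR7 had an unadjusted p of 0.0176 in CF and 0.0377 in CFPD (limma). The adjusted p were 0.0915 and 0.15, so that neither passed. With the labels of cow 2 exchanged DHCR7 was 0.56 above CNT in CF and 0.59 in CFPD. In cow 3 the treated glands were not above the CNT gland for CYP51A1, DHCR7 or HMGCS1, whereas in cow 2 they were above it by 0.72 to 1.20 for the same 3 genes. Both treated groups are compared with the same CNT arrays, so these 2 sets of values are not independent of each other or of the CNT minus NC differences.

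The difference of the CF effect between the time points was 1.06 ± 0.44 (SE) for FDPS, below CNT at 24 h and above it at 48 h, with an unadjusted p of 0.0291 and an adjusted p of 0.852 (limma). In this test 1.25% of all probe sets had an unadjusted p under 0.05 in the higher direction and 0% were called. For CFPD the FDPS value was 0.93 ± 0.44 with an adjusted p that rounds to 1. These values use the CNT arrays that also enter the time difference of CNT minus NC.

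Adding prednisolone to cefapirin left no difference past the threshold. At 24 h CFPD minus CF was between -0.05 (FDFT1) and 0.14 (DHCR7) for the 6 genes, and at 48 h between -0.16 (HMGCS1) and 0.01 (FDFT1). Without a term for the cow, the interval of FDPS at 24 h ran from -0.31 to 0.40. Those of DHCR7 (-1.12 to 1.40) and HMGCS1 (-1.23 to 1.41) reached past 2-fold in either direction, but they include the offset between the cows. With the cow as a block and the deposited labels, the interval of DHCR7 ran from -0.35 to 0.63 and that of HMGCS1 from -0.19 to 0.38. In these comparisons 0% of all probe sets were called. The direction at 24 h depends on the labels of cow 5, and with these exchanged the median of the 6 genes turned from 0.07 to -0.05.

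Of 15 other genes of the route that were listed, 9 were on the array, and none of these was called in CNT against NC glands. ACAT2, the thiolase that makes acetoacetyl-CoA at the head of the route, had the highest value of the 9 at both times, 0.97 ± 0.29 at 24 h and 0.80 ± 0.20 at 48 h. It was higher in CNT in all 5 cows (0.62 to 1.31), with adjusted p of 0.122 and 0.0465 (limma). TM7SF2, which reduces the sterol ring at carbon 14 just after CYP51A1, had the lowest, -0.98 ± 0.24 and -1.16 ± 0.42. It was lower in all 5 cows (-1.62 to -0.67), with adjusted p of 0.0769 and 0.125. With the cow as a block TM7SF2 had adjusted p of 0.0115 and 0.00605, which makes it called at 48 h, where 5.17% of all probe sets were called in that fit, against 6.1% at 24 h.

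NSDHL, which removes a methyl group from the sterol ring after CYP51A1, gave a pattern like that of FDPS. It was named because its levels, less the mean of each cow, were among the 5 most like the mean profile of the members. The choice thus fixed this likeness for NSDHL. Its levels in cows 4 and 5 were 10.21 and 9.86 in NC and 10.75 and 10.59 in CNT, a difference of 0.63 ± 0.20 (limma, adjusted p = 0.146, and 0.026 with the block). In cows 1, 2 and 3 its levels were 11.97, 11.15 and 10.94 in NC and 10.81, 10.37 and 11.17 in CNT, a difference of -0.57 ± 0.39 (adjusted p = 0.391). As for HMGCS1, CYP51A1 and DHCR7, cows 1 and 2 were lower in CNT and cow 3 was not, whereas FDFT1 and SQLE did not follow this order. At 24 h the 9 genes had a median of 0.17 with 5 positive, and at 48 h of -0.37 with 1 positive. All 9 differences between the time points were negative, with a median of -0.31, against 40.3% of all probe sets below 0.

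**Figure D4:**
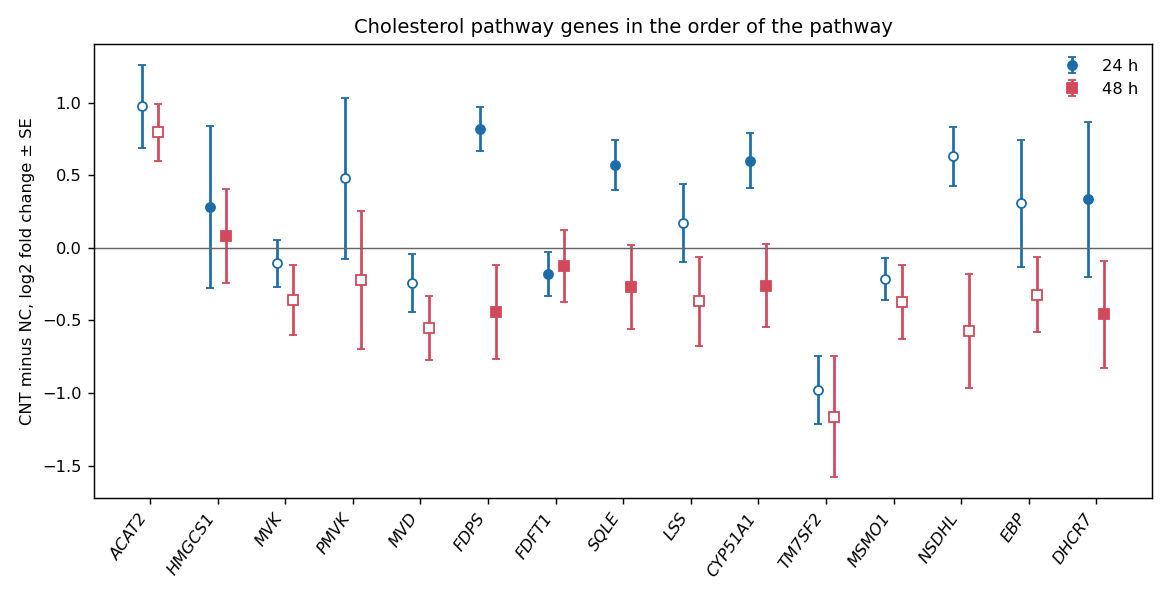
CNT minus NC as a log2 fold change with its SE (y axis) for the 15 cholesterol pathway genes on the array in the order of the pathway (x axis), at 24 h (circles) and 48 h (squares). Filled symbols are the 6 genes the text is about and open symbols the other 9. By the probe set of each gene with the highest mean, the 48 h value lies below the 24 h value for all genes but FDFT1. ACAT2 is above 0 and TM7SF2 below 0 at both times.

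Over these 15 genes together, the CNT gland was above the NC gland for 8 genes in cow 4 and 12 in cow 5. It was above for 2 genes in cow 1, 2 in cow 2 and 8 in cow 3. The medians were 0.01, 0.48, -0.56, -0.49 and 0.03 in the same order of cows. For the 9 genes that were not members alone, the CNT gland was above the NC gland for 4 genes in cow 4 and 7 in cow 5, with medians of -0.11 and 0.46. At 48 h it was above for 1 gene in cow 1, 1 in cow 2 and 5 in cow 3, with medians of -0.51, -0.66 and 0.06.

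Of 13 genes that regulate the route or take up cholesterol, 9 were on the array and tested, and none was called. INSIG1, which holds the SREBP complex in the endoplasmic reticulum and is itself a target of SREBP, had the lowest value at both times, -0.73 ± 0.34 at 24 h and -0.95 ± 0.38 at 48 h. Its adjusted p were 0.275 and 0.154 (limma), and 0.0352 and 0.0322 with the cow as a block. The INSIG1 value was negative in all 5 cows (-1.81 to -0.45), while FDPS and CYP51A1 differed in direction between the cows of 24 h and cows 1 and 2. SREBF2, the gene of SREBP-2, passed with the block at 48 h beside INSIG1, at -0.67 ± 0.26 (adjusted p = 0.142, and 0.0291 with the block). With the block 15.4% of all probe sets passed an adjusted p under 0.05 at 24 h and 15.8% at 48 h, against 1 and 2 of these 9 genes. The value of SREBF2 at 24 h was -0.20 ± 0.18. INSIG2 had the highest value of the list at 24 h (0.12 ± 0.48) and NPC1, which exports cholesterol from lysosomes, at 48 h (0.19 ± 0.24).

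After the mean of each cow was subtracted, the 15 pairs of the 6 genes correlated over the 20 arrays with r from -0.49 (FDFT1 and SQLE) to 0.86 (CYP51A1 and DHCR7). FDPS went with SQLE (r = 0.81) and CYP51A1 (0.73), and HMGCS1 with CYP51A1 (0.82). FDFT1, by its probe set with the highest mean, stood apart, with r between -0.49 and 0.39 to the other 5. Its second probe set was not part of these pairs and correlated with the first at r = 0.42 on the same cow-centred levels. Arrays of a cow share the animal, so these values are descriptive. The 5 probe sets with 1 gene symbol whose cow-centred levels were most like the mean profile of the 6 genes were those of F2RL1 (r = 0.86), HIPK2 (0.83), CSNK1A1 (0.82), NSDHL (0.81) and FZD4 (0.80). The probe sets of HIPK2 and CSNK1A1 were below the filter on low values and not tested. The profile was lowest in the CNT glands of cows 1 and 2, at -1.37 and -1.44 standardized units, and highest in the CF gland of cow 2, at 1.09.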

How the data were processed

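The authors computed the deposited log2 values with RMA in the package affy (which corrects background, quantile-normalizes the arrays and summarizes the probes of a set); versions, and whether both time points were normalized together, are not given in the sources used here. No raw intensities were used. Of 24128 probe sets, 112 controls were left out; the array's annotation gives 1 symbol to 13318, several to 86 and none to 10724. The 20 arrays were grouped by their labels. Probe sets above the array median on at least 2 arrays (24 h) or 3 arrays (48 h) were fitted per time point with limma 3.58.1 in R 4.3.3, 4 groups together and no term for the cow; the methods of the study name limma and these groups and do not state whether the cow was a term. P-values were adjusted over all 13004 or 13000 probe sets by Benjamini and Hochberg. The difference between time points was fitted on 13486 probe sets and all arrays. The residual degrees of freedom were 4, 8 and 12, and so few arrays limit the precision. The fit was also run on simulated data, whose outcome is not given here and carries no weight for the results.

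P-values measure the spread between arrays of different cows. The glands of a cow come from 1 animal, so the cow pairs the arrays; deviations of same-cow arrays from their group means correlated on average with r = 0.52 at 24 h (lowest 0.33) and 0.44 at 48 h (lowest 0.06). Fits with a fixed or random cow block, other filters, scalings and priors, 1 fit of all arrays, pooled treated glands, exchanged labels and left-out arrays and cows were run as alternatives. The members and gene lists were chosen with earlier results of these data known. Each member probe set was described, a gene being given by its probe set with the highest mean; of the other lists, called genes or else the highest and lowest were named, plus the 5 probe sets whose cow-centred profile was most like the members. SREBF2 was named after its values were seen. No sequences were printed and a planned search of promoters was not run, since no sequence table was used here.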

Additional observations from a re-analysis of the deposited data

How the results depend on the processing

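No member probe set was called in any comparison under any alternative, except that the adjusted p alone, without the fold limit, gave 1 at 24 h for CNT against NC (FDPS). FDPS passed an adjusted p under 0.05 at 24 h in 8 of 11 other settings and failed with all arrays in 1 fit (adjusted p = 0.23), with quantile normalization within the time point (0.0561) and with the CF and CFPD arrays left out (0.104). The cow as a replicate block brought SQLE (0.0422) and CYP51A1 (0.0394) past that threshold and raised the number of all probe sets called for CNT against NC from 311 to 793 at 24 h and from 346 to 672 at 48 h. Quantile normalization moved the median of the 6 genes at 24 h to 0.38 for CNT minus NC and 0.36 for CFPD minus NC; over all probe sets it moved the CNT minus NC median at 48 h from 0.13 to -0.04. It also turned the sign of FDFT1 (second probe set) at 24 h to -0.025, of HMGCS1 at 48 h to -0.077 and of the time difference of FDFT1 to -0.088, the last also with median centring (-0.00019). With the labels of cows 2 and 5 exchanged the median at 24 h was 0.27 for CFPD minus NC and -0.050 for CFPD minus CF, and with the treated glands pooled 0.31 for treated minus NC. Cows 2, 3 and 5 alone gave 0.54 at 24 h, and cows 1 and 4 alone -0.58 at 48 h, for CNT minus NC. The exchange was planned for cows under another numbering and run for cows 2 and 5; it and the splits by hybridization level were chosen after seeing the data.

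Leaving out 1 array or cow gave medians of the 6 genes from 0.18 to 0.70 for CNT minus NC at 24 h, -0.45 to -0.03 at 48 h and -0.99 to -0.62 for the time difference. At 24 h the ranges were -0.48 to 0.073 for CF minus CNT, -0.33 to 0.10 for CFPD minus CNT, 0.085 to 0.58 for CF minus NC, 0.10 to 0.58 for CFPD minus NC and -0.12 to 0.24 for CFPD minus CF. At 48 h, in the same order, they were 0.19 to 0.60, 0.11 to 0.53, -0.01 to 0.31, -0.15 to 0.20 and -0.33 to 0.035. The time differences of CF minus CNT and CFPD minus CNT ran from 0.40 to 0.77 and from 0.24 to 0.66. Single probe sets that changed sign for CNT minus NC at 24 h were those of HMGCS1 (-0.24 to 0.81, and -0.55 to 0.95 for the second), FDFT1 (second, -0.30 to 0.38) and DHCR7 (-0.27 to 0.94). At 48 h they were those of HMGCS1 (-0.12 to 0.35, and -0.39 to 0.51), FDFT1 (-0.37 to 0.073), SQLE (-0.48 to 0.04) and CYP51A1 (-0.53 to 0.014), and in the time difference HMGCS1 (second, -0.57 to 0.13) and FDFT1 (-0.19 to 0.25). With 1 array left in a group, that array is assumed to vary like the others.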

Other observations

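Genes grouped under efflux, esters and oxysterols, and genes of fatty acid synthesis, were listed beside the route. A place in the first list does not mean that a gene exports cholesterol here. ABCG2, a transporter of the apical membrane of mammary epithelium, was lower in CNT than in NC glands in all 5 cows (-1.95 to -0.37) and was called at 48 h (-1.21 ± 0.30, SE, n = 3 each; limma, adjusted p = 0.0474); at 24 h it was -0.95 ± 0.23 (adjusted p = 0.0768). It was the 1 gene called of 8 tested in the list of efflux, esters and oxysterols. With the cow as a block, LIPA (adjusted p = 0.00925) and SOAT1 (0.0201) were also called higher at 24 h, and LIPA (0.0287) and APOE (0.0409) at 48 h. In that fit 6.1% of all probe sets were called for CNT against NC at 24 h and 5.17% at 48 h. FASN, the fatty acid synthase, was also lower in all 5 cows (-1.81 to -0.84), and was called at 48 h (-1.13 ± 0.24, adjusted p = 0.0282) but at 24 h only with the cow as a block (-1.34 ± 0.29, adjusted p = 0.0622, and 0.0231 with the block). Its levels at 48 h were 14.25, 14.07 and 14.41 in the NC glands of cows 1, 2 and 3 and 13.11, 12.66 and 13.57 in CNT, without overlap. FASN was called higher in CF than in CNT glands at 48 h (1.12 ± 0.24, adjusted p = 0.0389). In CFPD it was 1.06 above CNT, close to the CF value, though not called without the block. The CF and CFPD labels of cow 2 are in doubt, and values with these exchanged are not given here. With the block ACACA, acetyl-CoA carboxylase, was called lower too at 48 h by 1 of its 2 probe sets (-1.04, adjusted p = 0.0220), while the other had -0.77 (0.0899). Of the 5 genes tested in its list 4 had negative values at both times, and ACLY, which makes cytosolic acetyl-CoA, was positive (0.81 ± 0.30 at 24 h and 0.62 ± 0.26 at 48 h, adjusted p = 0.184 and 0.171). These calls rest on few arrays. When each array or cow of 48 h was left out in turn, 15 fits in all, the call against NC remained in 3 for ABCG2 (adjusted p 0.0331 to 0.322) and in 7 for FASN (0.0176 to 0.18), and that of FASN in CF against CNT in 4 (0.0196 to 0.191), while all directions were kept. All 3 calls remained in 5 other settings with every array of 48 h, among them the cow as a block and both rescalings, which were chosen for these genes after their values were seen.

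LIPA, which frees cholesterol from esters in lysosomes, had the highest values of the efflux list, 1.62 ± 0.65 at 24 h and 1.90 ± 0.51 at 48 h (limma, adjusted p = 0.219 and 0.0574), and was positive in all 5 cows (1.04 to 2.46). Of the 4 genes tested of the other branches from farnesyl diphosphate, none was called without the block, and PDSS1, which builds the ubiquinone side chain, had the highest value at both times (1.03 at 24 h and 0.74 at 48 h, adjusted p = 0.0811 and 0.127, and 0.0252 and 0.0585 with the block, which makes it called at 24 h). With the block 6.1% of all probe sets were called at 24 h.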
